A study of Mus musculus with 15 samples.

Results

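The Wnt genes described here are 50 of the 55416 mouse genes in the count table. They were taken by gene symbol, as all protein-coding genes named Wnt, Fzd, Sfrp or Dkk with a number, together with Lrp5, Lrp6, Axin1, Axin2, Lef1, Tcf7, Tcf7l1, Tcf7l2, Ctnnb1, Rnf43, Znrf3, Nkd1 and Notum. By role they comprise 19 ligands, 10 Frizzled receptors, 2 co-receptors, 9 secreted inhibitors, 5 membrane or cytoplasmic feedback genes and 5 nuclear effectors. RNA was sequenced from neural precursor cells of the hippocampus of female mice aged 6 weeks, grown as adherent monolayers. Each of 3 stable lines had received, by piggyBac transposition, a cassette with a TRE3G promoter, an SV40-TetON-3G transactivator and puromycin resistance. In the Atf3 line (Overexpression-Atf3) this promoter drove the coding sequence of Atf3, in the Atf4 line (Overexpression-Atf4) that of Atf4, and in the control line (Overexpression-control) neither. EGF and FGF were withdrawn and doxycycline was added at 100 ng/ml to all 3 lines, and cells were harvested after 10 h. There were 5 libraries per line, and the labels do not state that these were separate cultures. The p-values therefore cover only the spread among these libraries, which may be technical. Each construct was in 1 line only, so the effect of the transgene and a difference between lines cannot be told apart.

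Wnt proteins are lipid-modified secreted ligands that bind Frizzled receptors at the cell surface. With the co-receptors Lrp5 and Lrp6 they halt the destruction of beta-catenin, which then enters the nucleus and acts with Tcf and Lef factors on target genes. Several targets encode inhibitors of the pathway itself, among them Axin2, Nkd1, Rnf43, Znrf3 and Notum, and so form negative feedback. Other ligands, with Wnt5a as the best known, mostly act without beta-catenin, through receptors such as Ror1, Ror2 and Ryk. In the adult hippocampus Wnt signals from astrocytes are known to promote the formation of neurons from precursor cells.

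Libraries held 53.7 to 69.6 M counts. Levels are given as CPM, the counts scaled to library totals corrected by TMM, and 1 CPM corresponded to 53.7 to 71.2 counts in a library. A fold change is a log2 value from edgeR's quasi-likelihood test with an approximate standard error (SE), and a gene was called at a Benjamini-Hochberg adjusted p (from edgeR throughout) under 0.05 over all 18244 genes tested. In control, Atf3 and Atf4 libraries the Atf3 gene had 5.02 ± 4.11, 1942 ± 119.6 and 1.40 ± 0.306 CPM (mean ± SD, n = 5), and the Atf4 gene 83.2 ± 6.75, 250.4 ± 16.5 and 153 ± 21.7 CPM. Every Atf3 library thus had more Atf4 RNA (227 to 267 CPM) than any Atf4 library (128 to 188 CPM). Counts per gene do not separate the transgene from the gene of the cell. The precursor markers Nes, Sox2, Fabp7, Sox9, Vim, Slc1a3 and Hes1 were all expressed in every line. In control, Atf3 and Atf4 libraries Nes had 662 ± 32.1, 1018 ± 46.6 and 834 ± 127 CPM, and Sox2 had 228 ± 7.51, 224 ± 13.3 and 233 ± 11.4 CPM. Markers of other cells moved between the lines. The sum of 6 oligodendrocyte lineage markers was 3841 to 4415 CPM in control, 2921 to 3733 CPM in Atf3 and 3474 to 4045 CPM in Atf4 libraries, mostly from Olig1 and Olig2, with Sox10 and Mbp below 1 CPM in every line. All 6 fell in the Atf3 line and 5 of them in the Atf4 line, where 36.3% and 29.7% of all tested genes were called lower. The sum of 5 neuronal markers, mostly Tubb3, was 85.0 to 89.6 CPM in control, 14.9 to 19.1 CPM in Atf3 and 33.2 to 53.8 CPM in Atf4 libraries. Of the 4 tested neuronal markers Tubb3 and Dcx fell in both lines, Snap25 rose in the Atf4 line (0.66 ± 0.17 SE) and Rbfox3 did not pass the test. The sum of 5 astrocyte markers was 222.6 to 261 CPM in control, 102 to 114 CPM in Atf3 and 97.1 to 134 CPM in Atf4 libraries. The sum of 4 ependymal and choroid plexus markers, nearly all Foxj1, was higher, at 20.3 to 24.3 CPM in control, 30.4 to 40.4 CPM in Atf3 and 28.8 to 37.7 CPM in Atf4 libraries, and Foxj1 rose in both lines (0.62 ± 0.078 SE and 0.59 ± 0.078 SE). Among the 4 endothelial markers Kdr alone was above 1 CPM, and it fell from 44.3 ± 1.74 CPM in control to 10.1 ± 1.29 CPM in Atf3 and 16.4 ± 1.60 CPM in Atf4 libraries (-2.14 ± 0.077 SE and -1.43 ± 0.074 SE). Microglial markers summed to at most 0.149 CPM with C1qa at 0 in every library, and mural and fibroblast markers to at most 0.8996 CPM. The part of these markers in the results below was not tested, and in bulk RNA fewer cells of a type and less RNA per cell cannot be told apart.

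Of the 50 genes 37 had enough counts to be tested and 13, named below, did not. In the Atf3 line 11 of these rose and 16 fell against control, and in the Atf4 line 13 rose and 12 fell. The called share was thus 27 of 37 (73.0%) in the Atf3 line, where 73.2% of all tested genes were called, 36.8% higher and 36.3% lower. It was 25 of 37 (67.6%) in the Atf4 line, against 61.6% of all genes, 31.9% higher and 29.7% lower. Both shares lay near the background of their comparison. Changes of at least 2-fold were called for 10 of the 37 in the Atf3 line, 4 higher and 6 lower, and for 8 in the Atf4 line, 4 in each direction, against 17.5% and 9.03% of all genes. Directly between the Atf4 and the Atf3 line 15 of the 37 differed, 7 higher and 8 lower in the Atf4 line. The background there was 43.6% of genes, 19.7% higher and 23.9% lower, and 3.27% of all genes changed at least 2-fold, whereas the largest called difference among the members was that of Wnt4 (0.85 ± 0.19 SE). The median log2 fold change of the 37 genes was -0.124 in the Atf3 line, -0.031 in the Atf4 line and 0.0884 between them, and that of all tested genes was -0.0175, -0.000847 and 0.00701. The comparisons with control share the control libraries, so their values are set side by side and are not independent.

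**Figure D1:**
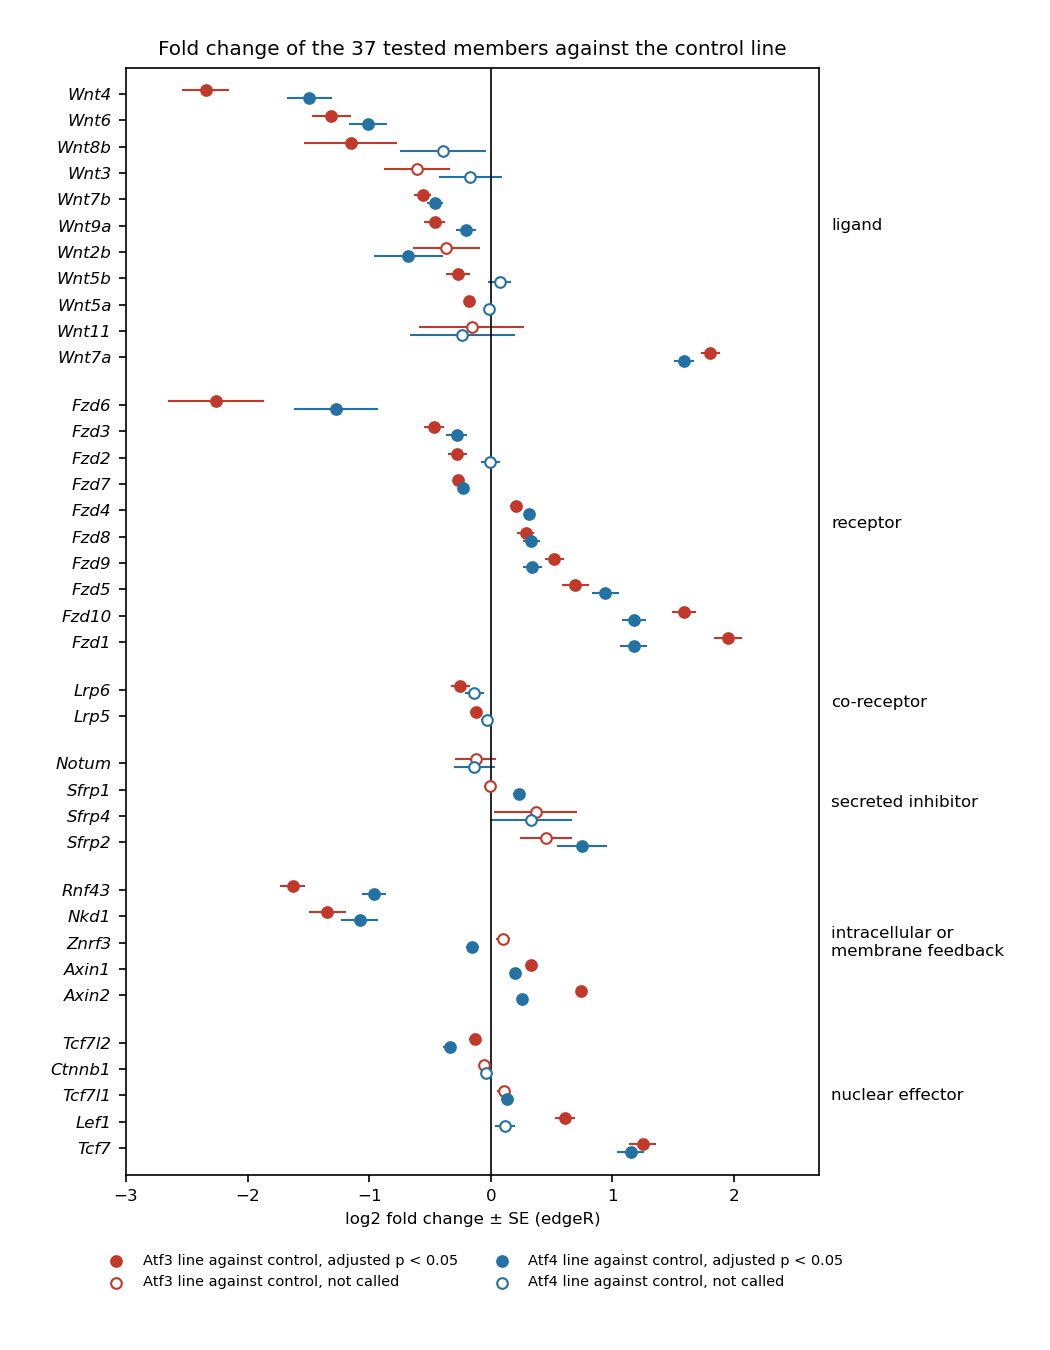
Log2 fold change (x axis) ± SE of the 37 tested genes in the Atf3 line (red) and the Atf4 line (blue) against control, by role, with filled points at an adjusted p under 0.05. Wnt4, Wnt6, Nkd1, Rnf43 and the rare Fzd6 lie far to the left in both lines, and Wnt7a, Fzd1, Fzd10 and Tcf7 far to the right.

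Among the ligands Wnt4 fell and Wnt7a rose in both lines. Of 11 tested ligands only Wnt7a rose in either line, while 7 fell in the Atf3 line (Wnt4, Wnt5a, Wnt5b, Wnt6, Wnt7b, Wnt8b and Wnt9a) and 5 in the Atf4 line (Wnt2b, Wnt4, Wnt6, Wnt7b and Wnt9a). Among all tested genes 36.8% were called higher and 36.3% lower for Atf3, and 31.9% and 29.7% for Atf4. Wnt4 (ENSMUSG00000036856; GRCm38 chromosome 4, 137277489 to 137299726, plus strand), a ligand known from kidney and gonad development that can act with or without beta-catenin, stood at 109, 103, 106, 109 and 107 CPM in the control libraries, 19.01, 25.7, 14.5, 24.1 and 21.9 CPM in the Atf3 libraries and 55.6, 40.5, 41.7, 32.3 and 19.3 CPM in the Atf4 libraries. Every control library lay above every library of both other lines, and Atf4 replicate 5 lay within the range of the Atf3 line. The fall was 5.08-fold in the Atf3 line (-2.34 ± 0.19 SE, adjusted p = 3.0e-09) and 2.81-fold in the Atf4 line (-1.49 ± 0.19 SE, adjusted p = 1.4e-06). Between both lines Wnt4 was higher in the Atf4 line (0.85 ± 0.19 SE, adjusted p = 0.00152), with overlapping libraries.

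Wnt7a (ENSMUSG00000030093; GRCm38 chromosome 6, 91363981 to 91411363, minus strand), a ligand of neural progenitors known to act through beta-catenin in neural stem cells, moved the other way. Its level was 14.6, 14.9, 16.8, 15.2 and 19.7 CPM in the control libraries, 57.4, 53.8, 58.6, 58.5 and 55.7 CPM in the Atf3 libraries and 40.98, 49.3, 47.9, 51.5 and 54.8 CPM in the Atf4 libraries. All control libraries were below all others, and the ranges of the Atf3 and Atf4 lines met. The rise was 3.49-fold in the Atf3 line (1.80 ± 0.079 SE, adjusted p = 5.8e-13) and 3.01-fold in the Atf4 line (1.59 ± 0.079 SE, adjusted p = 8.3e-12). A smaller difference separated the lines from each other (-0.22 ± 0.075 SE, adjusted p = 0.0262), and this call ended without Atf3 replicate 3 or 4 or Atf4 replicate 1 or 3 (adjusted p = 0.0527, 0.0520, 0.0736 and 0.0575). Its close relative Wnt7b, known to guide brain blood vessels together with Wnt7a, fell in both lines (-0.56 ± 0.067 SE and -0.46 ± 0.067 SE), from 22.8 ± 2.16 to 15.4 ± 0.918 and 16.6 ± 1.22 CPM.

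The remaining ligands fell or did not pass the test against control. Wnt6, a ligand of epithelial tissues, stood at 4.22, 4.19, 3.85, 3.59 and 4.82 CPM in the control libraries, 1.68, 1.60, 1.49, 1.73 and 1.80 CPM in the Atf3 libraries and 2.38, 2.79, 1.53, 2.22 and 1.26 CPM in the Atf4 libraries. All control libraries were above all others, and the Atf4 libraries were the most spread. Wnt6 fell by 1.31 in the Atf3 line and by 1.01 in the Atf4 line on the log2 scale (adjusted p = 6.3e-07 and 1.7e-05), and between the lines it did not pass the test (adjusted p = 0.156, but 0.0176 without Atf4 replicate 5). Wnt5a was the most abundant ligand in every line, at 291 ± 6.60 CPM in control, 257 ± 16.2 CPM in Atf3 and 288 ± 8.35 CPM in Atf4 libraries. It fell slightly in the Atf3 line (-0.18 ± 0.039 SE) and had a log2 fold change of -0.013 ± 0.039 SE in the Atf4 line. Wnt5b, a close relative of Wnt5a, was at 3.44 ± 0.435 CPM in control and fell in the Atf3 line (-0.27 ± 0.099 SE, adjusted p = 0.0204), a call that ended without control replicate 5 or Atf3 replicate 2 or 3 (adjusted p of up to 0.0583), with no filter (0.0648) and without both control replicates 4 and 5 (0.107). Wnt9a was at 2.52 ± 0.1496 CPM in control and fell in the Atf3 line (-0.46 ± 0.085 SE) and less for Atf4 (-0.20 ± 0.083 SE, adjusted p = 0.0436). The second call ended in 11 of 23 alternatives, among them those without control replicate 1 or 5, Atf3 replicate 1 or 3, or Atf4 replicate 2 or 4, with an adjusted p of up to 0.229. Wnt2b, Wnt3, Wnt8b and Wnt11 were below 1 CPM in every line on average. Among them Wnt8b fell in the Atf3 line (-1.15 ± 0.39 SE) and Wnt2b in the Atf4 line (-0.68 ± 0.28 SE, adjusted p = 0.0458). The call of Wnt2b ended without control replicate 2, 4 or 5, Atf3 replicate 2 or 3, or Atf4 replicate 1, 2 or 4 (adjusted p of up to 0.190 over the alternatives). Wnt1, Wnt2, Wnt3a, Wnt8a, Wnt9b, Wnt10a, Wnt10b and Wnt16 had 1 to 45 counts each in all 15 libraries together and were not tested. Wnt3a, the ligand most often used to start beta-catenin signalling in culture, had 5.

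To compare genes, CPM were divided by the exon length of each gene in kilobases, giving RPKM. On this scale Wnt5a led the control line at 37.2 ± 0.844 RPKM, followed by Wnt4 at 25.5 ± 0.575, Wnt7a at 5.12 ± 0.664 and Wnt7b at 4.65 ± 0.441, and the last pair differed by less than its spread. In the Atf3 line the order was Wnt5a (32.8 ± 2.07), Wnt7a (17.9 ± 0.651), Wnt4 (5.02 ± 1.06) and Wnt7b (3.15 ± 0.187). The Atf4 line had the same order, with Wnt7a at 15.4 ± 1.62 and Wnt4 at 9.03 ± 3.18 RPKM. As a share of the RPKM of all 19 ligands, Wnt4 was 33.1 ± 0.903% in control, 8.09 ± 1.41% in Atf3 and 13.1 ± 4.23% in Atf4 libraries (SD, n = 5). The share of Wnt7a was 6.64 ± 0.781%, 29.1 ± 2.02% and 22.8 ± 3.27%. The sum of all ligands was 76.98 ± 0.928 RPKM in control, 61.7 ± 2.59 RPKM in the Atf3 line and 68.1 ± 2.96 RPKM in the Atf4 line. Such shares describe RNA and do not weigh the potency of a ligand.

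**Figure D2:**
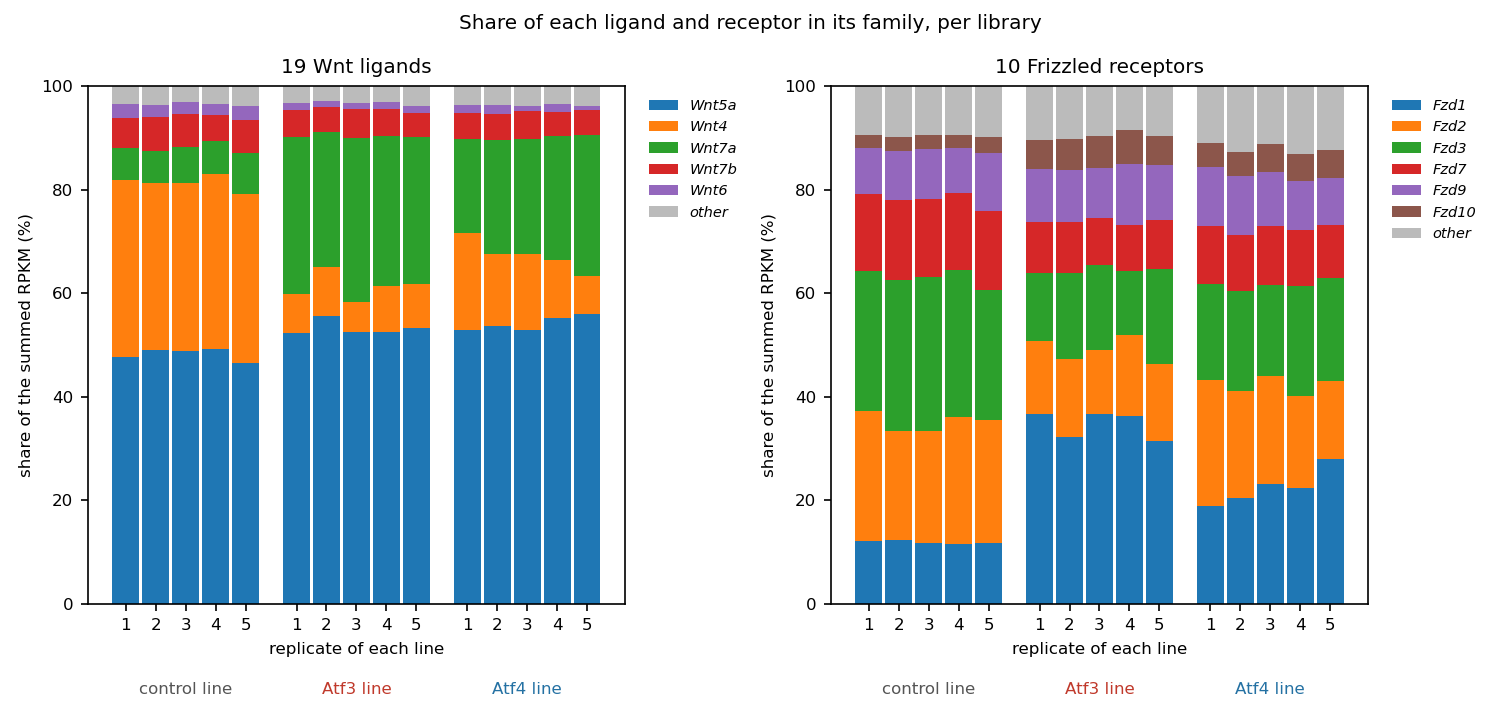
Share of each gene in the summed RPKM of the 19 ligands (left) and the 10 Frizzled receptors (right), 1 bar per library, in percent. Wnt4 makes up 32.2 to 34.3% of ligand RNA in the control libraries and 5.90 to 9.47% in the Atf3 libraries, and Fzd1 11.5 to 12.3% and 31.4 to 36.7% of receptor RNA.

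The promoters of both ligands are shown because these genes moved in opposite directions. They are RefSeq sequences on GRCm38.p6, running from 250 bases before to 50 bases after the annotated start, and 33 of the 50 genes had one. The motifs searched on both strands were the TCF/LEF core CTTTGA, the palindromic cAMP response element TGACGTCA and its core TGACG (which lies within it), the AP-1 site TGACTCA and the C/EBP-ATF element TGATGNAAT. Capitals mark a match to any of them other than TGACG. Neither window held a match, which says only that these letters are not in it. The Wnt4 window is chr4:137277385-137277684 on the plus strand and the Wnt7a window chr6:91411304-91411603 on the minus strand.
Wnt4: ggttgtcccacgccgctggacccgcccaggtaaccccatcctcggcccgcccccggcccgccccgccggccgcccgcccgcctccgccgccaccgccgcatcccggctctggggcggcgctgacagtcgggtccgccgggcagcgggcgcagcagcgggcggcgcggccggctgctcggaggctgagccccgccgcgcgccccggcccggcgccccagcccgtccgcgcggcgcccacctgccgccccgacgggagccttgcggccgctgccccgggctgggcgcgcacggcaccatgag
Wnt7a: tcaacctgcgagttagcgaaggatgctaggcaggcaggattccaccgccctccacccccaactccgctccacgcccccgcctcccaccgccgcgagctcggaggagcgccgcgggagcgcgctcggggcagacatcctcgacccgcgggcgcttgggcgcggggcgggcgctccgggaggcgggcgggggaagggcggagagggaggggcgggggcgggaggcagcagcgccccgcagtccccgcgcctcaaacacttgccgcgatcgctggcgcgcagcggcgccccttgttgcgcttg
Among all 32851 windows in the RefSeq table, 16.0% held the TCF/LEF core, 1.79% the palindromic element, 20.8% its core, 5.20% the AP-1 site and 0.965% the C/EBP-ATF element. Of the 20 windows of the 17 genes given in every library here, 13 of which had a window, 2 held the TCF/LEF core, 2 held TGACG and 0 held any of the other motifs.

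All 10 Frizzled receptors, the seven-pass proteins that bind Wnt ligands, were tested and all 10 were called in the Atf3 line, 6 higher and 4 lower. In the Atf4 line 6 were higher and 3 lower. Of all tested genes 73.2% were called for Atf3 and 61.6% for Atf4. Fzd1, Fzd4, Fzd5, Fzd8, Fzd9 and Fzd10 rose in each line and Fzd3, Fzd6 and Fzd7 fell in each, whereas Fzd2 fell in the Atf3 line (-0.27 ± 0.078 SE) and stood at -0.0043 ± 0.077 SE in the Atf4 line. The largest rise in the Atf3 line was that of Fzd1 (ENSMUSG00000044674; GRCm38 chromosome 5, 4753839 to 4758035, minus strand), at 32.7, 33.3, 31.8, 30.3 and 32.3 CPM in the control libraries, 133, 111, 132, 137 and 107 CPM in the Atf3 libraries and 56.8, 61.9, 72.6, 73.5 and 98.5 CPM in the Atf4 libraries. The lines were fully separated, with Atf4 between control and Atf3, and Atf4 replicate 5 closest to the Atf3 line. Fzd1 rose 3.87-fold in the Atf3 line (1.95 ± 0.11 SE, adjusted p = 2.0e-11) and 2.26-fold in the Atf4 line (1.18 ± 0.11 SE, adjusted p = 3.7e-08), and it was lower in the Atf4 than in the Atf3 line (-0.77 ± 0.11 SE, adjusted p = 1.9e-05).

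Fzd10 (ENSMUSG00000081683; GRCm38 chromosome 5, 128600844 to 128604093, plus strand), a receptor known from the dorsal neural tube, followed the same course at a lower level, at 4.96, 5.76, 5.57, 4.81 and 6.56 CPM in the control libraries, 15.7, 16.1, 17.3, 19.3 and 14.99 CPM in the Atf3 libraries and 10.7, 10.9, 13.3, 13.3 and 14.6 CPM in the Atf4 libraries. No library of one line reached into the range of another. The log2 fold change was 1.59 ± 0.10 SE in the Atf3 line and 1.18 ± 0.10 SE in the Atf4 line (adjusted p = 5.9e-11 and 9.1e-09), and -0.41 ± 0.094 SE between them (adjusted p = 0.00175). Fzd5, a receptor needed in eye development, went from 15.7 ± 0.7098 CPM in control to 25.4 ± 2.35 and 30.2 ± 6.46 CPM, with log2 fold changes of 0.70 ± 0.11 SE and 0.94 ± 0.11 SE. Of the Fzd5 exon bases 17.8% overlap a gene on the other strand, which unstranded counts cannot separate. Fzd9, known from hippocampal development, rose by 0.52 ± 0.077 SE and 0.34 ± 0.077 SE, Fzd8 by 0.29 ± 0.070 SE and 0.34 ± 0.070 SE, and Fzd4, the receptor of the eye ligand norrin, by 0.21 ± 0.047 SE and 0.32 ± 0.047 SE. Fzd3, which guides axons, fell from 229.9 ± 15.5 CPM to 166 ± 21.8 and 189 ± 22.7 CPM (-0.47 ± 0.085 SE and -0.28 ± 0.085 SE). Fzd7 fell as well (-0.27 ± 0.037 SE and -0.23 ± 0.037 SE). The strongest fall by ratio was that of Fzd6 (-2.26 ± 0.40 SE and -1.28 ± 0.35 SE), but at 0.382 ± 0.0973 CPM in control it was the rarest receptor.

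Per length, Fzd3 led the receptors in the control line at 17.96 ± 1.21 RPKM, ahead of Fzd2 at 14.9 ± 1.04, Fzd7 at 9.69 ± 0.227 and Fzd1 at 7.64 ± 0.276. In the Atf3 line Fzd1 led at 29.6 ± 3.34 RPKM, followed by Fzd3 at 13.00 ± 1.70 and Fzd2 at 12.3 ± 1.22, which differed by less than their spread. Fzd1 was also first in the Atf4 line at 17.3 ± 3.83 RPKM, but within its spread of Fzd2 (14.9 ± 1.77) and Fzd3 (14.8 ± 1.77). Fzd1 made up 11.9 ± 0.326% of receptor RPKM in control, 34.6 ± 2.63% in Atf3 and 22.6 ± 3.45% in Atf4 libraries (SD, n = 5). The sum over all receptors was 64.3 ± 1.03, 85.2 ± 3.56 and 76.2 ± 5.11 RPKM. It was thus higher where the sum over ligands was lower, and no library of either line lay within the control range of either sum.

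**Figure D3:**
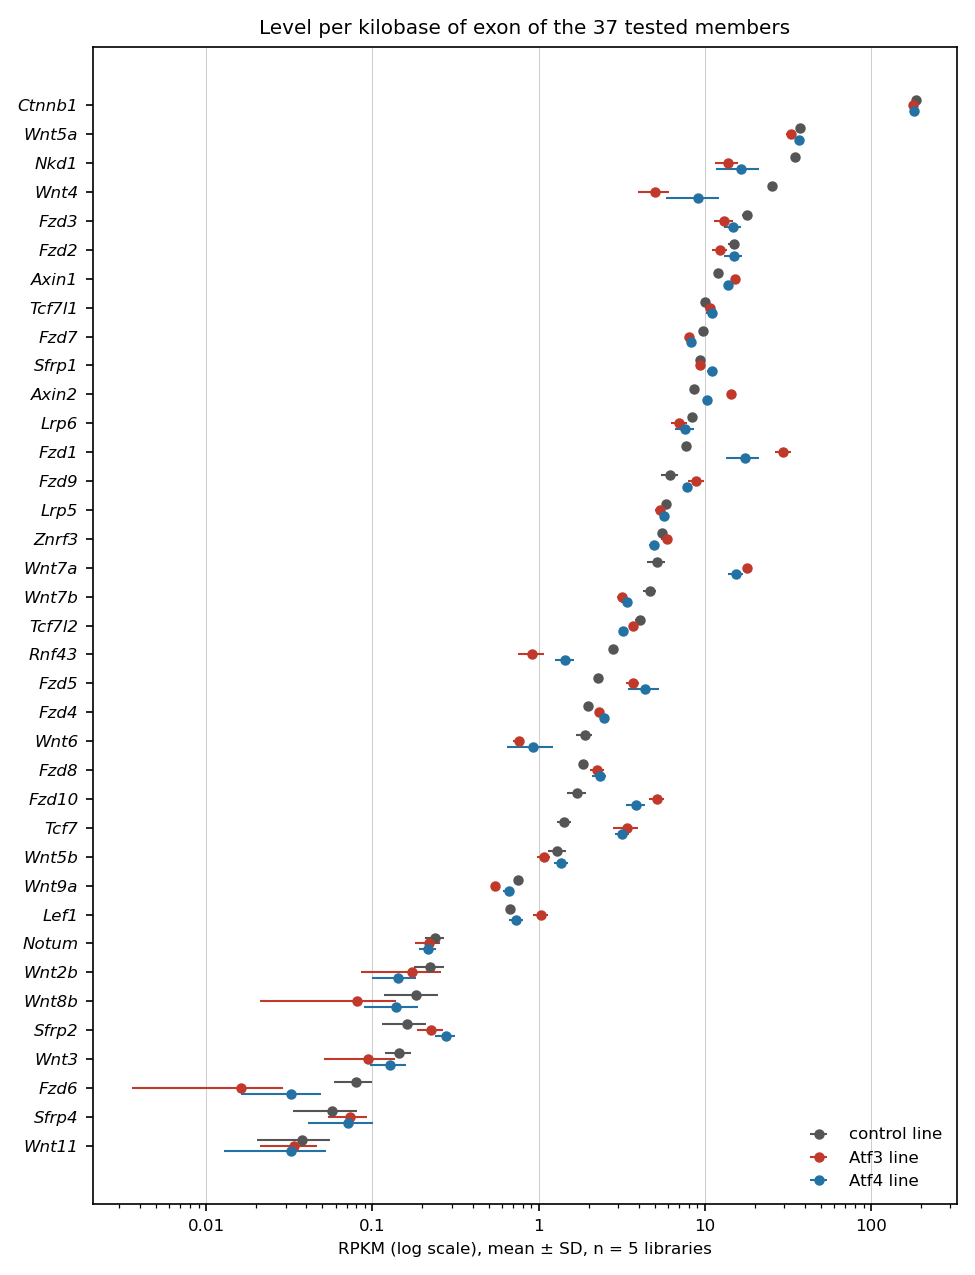
Level per kilobase of exon (RPKM, log axis; mean ± SD, n = 5) of the 37 tested genes in the control (grey), Atf3 (red) and Atf4 (blue) lines, ordered by the control level. Ctnnb1 stands above all others at 179.5 to 186 RPKM, and Fzd1 rises from 7.64 RPKM in control to 29.6 RPKM in the Atf3 line, where only Ctnnb1 and Wnt5a are above it.

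The Fzd1 window is shown because, of the genes given in every library, only Fzd1 and Lef1 had a window with the TCF/LEF core, here in capitals (as TCAAAG, the reverse strand of CTTTGA). The window is chr5:4758167-4758466 on the minus strand, and the match begins 242 bases before the start.
Fzd1: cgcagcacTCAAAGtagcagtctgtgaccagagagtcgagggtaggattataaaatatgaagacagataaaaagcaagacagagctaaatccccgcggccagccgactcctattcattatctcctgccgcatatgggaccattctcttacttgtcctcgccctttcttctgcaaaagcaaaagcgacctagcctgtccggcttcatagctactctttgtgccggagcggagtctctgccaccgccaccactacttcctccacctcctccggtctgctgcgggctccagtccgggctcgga
A match of this length is a description and not a binding site.

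The co-receptors Lrp5 and Lrp6, single-pass proteins that are phosphorylated when a Wnt binds, changed little. Lrp6 stood at 116, 122, 117, 113 and 104 CPM in the control libraries, 86.2, 95.2, 106, 86.2 and 107 CPM in the Atf3 libraries and 92.05, 94.6, 97.1, 117 and 119.8 CPM in the Atf4 libraries. The lines overlapped, although it fell in the Atf3 line (-0.25 ± 0.079 SE, adjusted p = 0.00809) and was at -0.13 ± 0.078 SE in the Atf4 line (adjusted p = 0.147, but 0.0419 and 0.0240 without Atf4 replicates 4 and 5). Lrp5 was at 59.9, 58.1, 54.4, 55.6 and 54.4 CPM in the control libraries, 50.4, 52.1, 52.7, 56.7 and 48.1 CPM in the Atf3 libraries and 57.1, 49.97, 55.8, 55.2 and 58.4 CPM in the Atf4 libraries. Its fall in the Atf3 line was smaller still (-0.12 ± 0.048 SE, adjusted p = 0.033), and the call ended in 7 of 23 alternatives, among them those without control replicate 1 or Atf3 replicate 1, 2, 3 or 5 (adjusted p = 0.0616, 0.0824, 0.0591, 0.0502 and 0.114).

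Secreted inhibitors were scarce except for 1 of them. Sfrp1, a decoy that binds Wnt ligands outside the cell, had 41.1 ± 1.77 CPM in control, 40.8 ± 2.04 in Atf3 and 48.2 ± 3.03 in Atf4 libraries. It rose in the Atf4 line (0.23 ± 0.047 SE against control, adjusted p = 3.3e-04), and it was higher there than in the Atf3 line (0.24 ± 0.047 SE, adjusted p = 5.0e-04). All Atf4 libraries lay above all others. Sfrp2 and Sfrp4, decoys of the same family, and Notum, an enzyme that removes the lipid of Wnt proteins, were at 0.238 to 0.594 CPM on average. Of these Sfrp2 rose in the Atf4 line (0.75 ± 0.21 SE, adjusted p = 0.00428), and 16.1% of its exon bases overlap a gene on the other strand, which unstranded counts cannot separate. Dkk1, Dkk2, Dkk3, Dkk4 and Sfrp5 were not tested. Dkk1, the classical Lrp6 blocker, had 4 counts in all 15 libraries, and Dkk3 with 116 counts was the most frequent of the 5.

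The feedback genes, most of which are known to rise with beta-catenin activity in many tissues, did not move together. Axin1 and Axin2 rose in both lines, Nkd1 and Rnf43 fell in both, and Znrf3 fell slightly in the Atf4 line. Axin2 (ENSMUSG00000000142; GRCm38 chromosome 11, 108920349 to 108950783, plus strand), a scaffold of the beta-catenin destruction complex that is widely used as a reporter of the pathway, stood at 45.3, 45.9, 49.8, 46.7 and 48.6 CPM in the control libraries, 76.5, 78.9, 76.4, 85.3 and 78.5 CPM in the Atf3 libraries and 54.7, 57.5, 55.1, 56.7 and 59.1 CPM in the Atf4 libraries. The 3 lines were fully separated, with control lowest and Atf3 highest. Axin2 rose 1.67-fold in the Atf3 line (0.74 ± 0.039 SE, adjusted p = 5.0e-12) and 1.20-fold in the Atf4 line (0.26 ± 0.039 SE, adjusted p = 1.1e-05), and the difference between the lines was -0.48 ± 0.038 SE (adjusted p = 8.3e-08). Its relative Axin1, which is made constitutively, stood at 46.1, 45.1, 45.8, 44.4 and 47.4 CPM in the control libraries, 56.2, 54.1, 58.3, 60.5 and 59.3 CPM in the Atf3 libraries and 53.05, 50.4, 54.98, 50.7 and 53.3 CPM in the Atf4 libraries. Axin1 rose less (0.33 ± 0.037 SE and 0.20 ± 0.037 SE, adjusted p = 1.8e-07 and 1.5e-04), and all control libraries were below all others.

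Rnf43 (ENSMUSG00000034177; GRCm38 chromosome 11, 87662722 to 87735539, plus strand), a membrane ubiquitin ligase that removes Frizzled receptors from the cell surface, was at 17.9, 17.9, 19.1, 18.4 and 19 CPM in the control libraries, 5.27, 6.68, 4.82, 7.47 and 5.63 CPM in the Atf3 libraries and 10.8, 10.6, 9.39, 8.82 and 7.78 CPM in the Atf4 libraries. The lines did not overlap. Rnf43 fell 3.09-fold in the Atf3 line (-1.63 ± 0.10 SE, adjusted p = 6.0e-11) and 1.94-fold in the Atf4 line (-0.96 ± 0.098 SE, adjusted p = 1.0e-07), and it was higher in the Atf4 than in the Atf3 line (0.67 ± 0.10 SE, adjusted p = 5.5e-05). Its paralog Znrf3, with the same function, stood at 42.7, 45.8, 43.8, 40.8 and 44.2 CPM in the control libraries, 41.4, 48.3, 50.2, 46.05 and 46.8 CPM in the Atf3 libraries and 36.2, 36.6, 38.8, 42.9 and 41.2 CPM in the Atf4 libraries. Here the libraries of all lines overlapped. Znrf3 was at 0.10 ± 0.055 SE in the Atf3 line (adjusted p = 0.108, but 0.0197 without Atf3 replicate 1) and fell in the Atf4 line (-0.15 ± 0.055 SE, adjusted p = 0.0239, but 0.0636 with no filter on low counts). Between the lines it was lower in the Atf4 line (-0.25 ± 0.055 SE, adjusted p = 0.00125).

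Nkd1 (ENSMUSG00000031661; GRCm38 chromosome 8, 88521354 to 88594884, plus strand), which binds Dishevelled and dampens the signal inside the cell, was at 155, 160.3, 159, 157 and 161 CPM in the control libraries, 57.3, 73.1, 49.3, 71.99 and 60.2 CPM in the Atf3 libraries and 102, 78.3, 84.3, 66.7 and 43.9 CPM in the Atf4 libraries. Control libraries were tightly grouped and above all others, while the Atf4 libraries spread over more than a 2-fold range. The fall was 2.54-fold in the Atf3 line (-1.34 ± 0.15 SE, adjusted p = 2.1e-07) and 2.11-fold in the Atf4 line (-1.08 ± 0.15 SE, adjusted p = 5.4e-06). Between the lines Nkd1 did not pass the test (0.27 ± 0.15 SE, adjusted p = 0.16), but it did without Atf4 replicate 5 (adjusted p = 0.00322). That library had the highest Atf4 level of its line, 188 CPM, and the lowest Wnt4, Nkd1 and Rnf43, whereas Atf4 replicate 1 had the lowest Atf4 level, 128 CPM, and the highest Wnt4, Nkd1 and Rnf43. For Fzd1, Wnt7a, Fzd10, Axin2 and Lrp6 replicate 5 was the highest Atf4 library and replicate 1 the lowest. These genes were picked out after their values were seen. Replicates 1 and 5 were also the ends of the Atf4 line over all tested genes. The first principal component of log2 CPM is the axis of largest spread among the libraries. On it Atf4 replicates 1 to 5 stood at 1.015, 6.68, 9.74, 12.75 and 22.1. Control libraries lay at -48.7 to -42.8 and Atf3 libraries at 30.2 to 40.35. The Atf4 libraries are 5 of 1 line, and the relation to the Atf4 level was not tested.

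**Figure D4:**
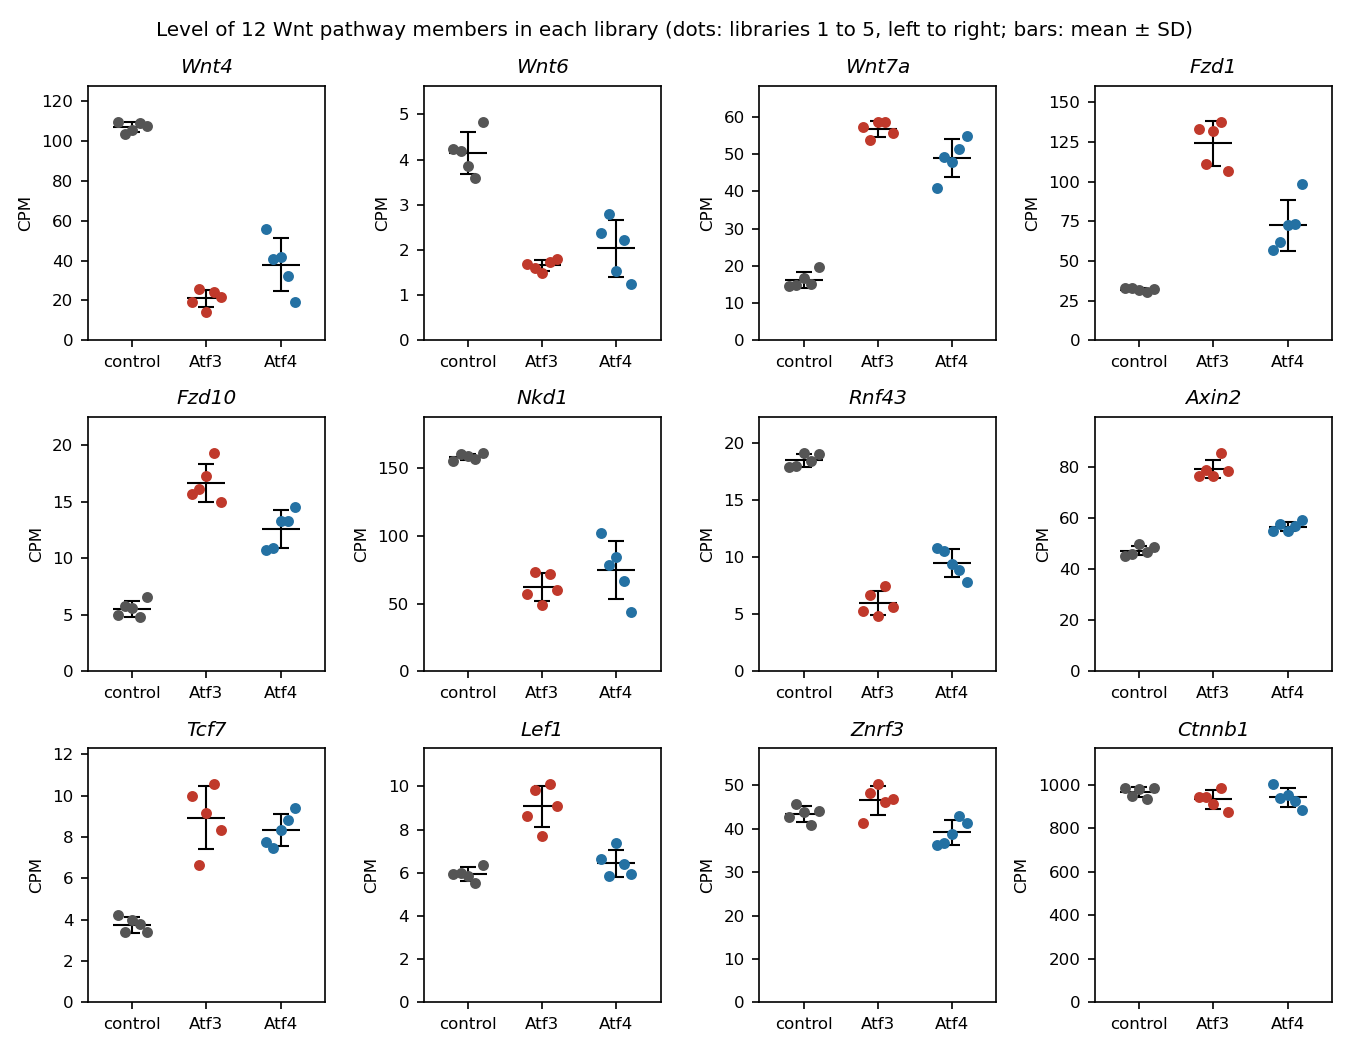
CPM of 12 genes in each library (dots, replicates 1 to 5 from left to right), with the mean and SD of each line, on linear axes that start at 0. Control libraries stand apart from both other lines for Wnt4, Wnt6, Wnt7a, Fzd1, Fzd10, Nkd1, Rnf43, Axin2 and Tcf7, and all lines overlap for Znrf3 and Ctnnb1.

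Of the nuclear effectors, Ctnnb1, encoding beta-catenin itself, was the most abundant of all 50 genes and was not called in any comparison. It stood at 984, 945, 980, 934 and 985 CPM in the control libraries, 944, 945, 911, 985 and 873 CPM in the Atf3 libraries and 1001, 940, 953, 927 and 884 CPM in the Atf4 libraries. The lines overlapped, and the log2 fold change was -0.052 ± 0.037 SE in the Atf3 line, -0.038 ± 0.037 SE in the Atf4 line and 0.014 ± 0.037 SE between them (adjusted p = 0.217, 0.393 and 0.784). A filter at 1 CPM brought the change in the Atf3 line to an adjusted p of 0.00917. The level of Ctnnb1 RNA does not show the amount of stable beta-catenin protein, which the pathway controls after translation. Of the Ctnnb1 exon bases 14.6% overlap a gene on the other strand.

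Tcf7 (ENSMUSG00000000782; GRCm38 chromosome 11, 52252371 to 52283014, minus strand), encoding TCF1, a factor that binds DNA with beta-catenin, stood at 4.24, 3.38, 3.99, 3.77 and 3.38 CPM in the control libraries, 9.99, 6.64, 9.14, 10.5 and 8.31 CPM in the Atf3 libraries and 7.77, 7.46, 8.35, 8.81 and 9.37 CPM in the Atf4 libraries. Control libraries were below all others, and the Atf3 and Atf4 lines overlapped. The rise was 2.38-fold in the Atf3 line (1.25 ± 0.11 SE, adjusted p = 6.9e-09) and 2.22-fold in the Atf4 line (1.15 ± 0.11 SE, adjusted p = 4.3e-08). Lef1, its relative needed for the formation of the hippocampus, was at 5.96, 6.00, 5.85, 5.51 and 6.37 CPM in the control libraries, 8.64, 9.85, 7.70, 10.1 and 9.08 CPM in the Atf3 libraries and 6.63, 5.83, 7.40, 6.39 and 5.94 CPM in the Atf4 libraries. Only the Atf3 libraries stood apart. Lef1 rose there (0.61 ± 0.080 SE, adjusted p = 1.5e-06), was at 0.12 ± 0.081 SE in the Atf4 line (adjusted p = 0.225), and differed between the lines (-0.49 ± 0.080 SE, adjusted p = 7.7e-05). Part of its exons, 13.8%, overlaps a gene on the other strand.

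Tcf7l1 and Tcf7l2 are the more abundant factors of this family here, and Tcf7l1 mostly represses targets. Tcf7l2 stood at 36.3, 35.9, 32.3, 38.6 and 34.5 CPM in the control libraries, 33.3, 30.5, 34.5, 31.4 and 33.2 CPM in the Atf3 libraries and 29.1, 27.7, 28.7, 25.8 and 29.1 CPM in the Atf4 libraries. It fell in the Atf4 line, where all libraries were below all others (-0.34 ± 0.050 SE, adjusted p = 1.0e-05), and less in the Atf3 line (-0.13 ± 0.050 SE, adjusted p = 0.03). The call in the Atf3 line ended in 5 of 23 alternatives. These were no filter on low counts (adjusted p = 0.153), the replicate block (0.0505), and the fits without Atf3 replicate 2 (0.0969), Atf3 replicate 4 (0.0762) or both control replicates 4 and 5 (0.0867). The difference between the lines was -0.21 ± 0.050 SE (adjusted p = 0.00224). Tcf7l1 was at 39.8, 41.2, 37.99, 38.4 and 38.9 CPM in the control libraries, 39.7, 43.3, 39.1, 45.9 and 43.2 CPM in the Atf3 libraries and 47.9, 41.6, 44.5, 41.5 and 40.03 CPM in the Atf4 libraries. The lines overlapped. Tcf7l1 was not called in the Atf3 line (0.11 ± 0.052 SE, adjusted p = 0.0737, 0.0280 to 0.413 over the alternatives) and rose slightly in the Atf4 line (0.13 ± 0.052 SE, adjusted p = 0.0306, 0.0155 to 0.161). The call in the Atf4 line ended in 10 of 23 alternatives, among them those without control replicate 1, 3, 4 or 5 or Atf4 replicate 1, 2 or 3. A call in the Atf3 line appeared in 4 of 23, among them those without Atf3 replicate 1 or 3.

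Per length Ctnnb1 was at 186 ± 4.61 RPKM in control, against 10.01 ± 0.331 for Tcf7l1, 4.05 ± 0.264 for Tcf7l2, 1.43 ± 0.144 for Tcf7 and 0.675 ± 0.0350 for Lef1. In the Atf3 line Tcf7 reached 3.40 ± 0.583 RPKM and lay within its spread of Tcf7l2 at 3.71 ± 0.183. Lef1 has 4 windows in the RefSeq table. The one farthest inside the gene, shown here because it alone of the 4 held the TCF/LEF core, has it at 180 and at 120 bases before that start, again as TCAAAG. It is chr3:131156044-131156343 on the plus strand.
Lef1: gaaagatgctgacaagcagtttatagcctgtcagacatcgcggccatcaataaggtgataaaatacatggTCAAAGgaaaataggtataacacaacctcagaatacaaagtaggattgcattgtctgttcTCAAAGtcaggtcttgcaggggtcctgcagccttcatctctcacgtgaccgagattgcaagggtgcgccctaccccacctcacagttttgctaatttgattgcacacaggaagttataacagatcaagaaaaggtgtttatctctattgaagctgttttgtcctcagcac
Counts per gene do not separate the transcripts of these starts.

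Another 66 genes of the pathway, in 8 lists, were examined in the same fit, and 58 of them were tested. Their called shares, and those of each list, are to be read against the same background (73.2%, 61.6% and 43.6% of all tested genes). In the Atf3 line 25 rose and 21 fell (79.3% called), in the Atf4 line 19 and 20 (67.2%), and between the lines 15 were higher and 14 lower in the Atf4 line (50%). The medians were 0.0103, -0.0154 and 0.00828. Of the genes of Wnt secretion, Porcn, which attaches the lipid to Wnt proteins, fell in both lines (-0.45 ± 0.055 SE and -0.36 ± 0.054 SE). Wls, the carrier that takes Wnt proteins to the cell surface, fell in the Atf4 line (-0.11 ± 0.035 SE, adjusted p = 0.0121, but 0.0925 with no filter) and was at 305 ± 10.3 CPM in control and 304 ± 9.90 CPM in the Atf3 line. Among R-spondins, the ligands that shield Frizzled receptors from Rnf43 and Znrf3, and their receptors, 2 of 4 tested genes rose and 1 fell in the Atf3 line, and 2 rose in the Atf4 line. Lgr4 rose from 14.7 ± 0.425 CPM to 29.4 ± 1.71 and 27.4 ± 3.01 CPM (1.00 ± 0.064 SE and 0.90 ± 0.064 SE), and Lgr5 from 3.55 ± 0.323 to 4.97 ± 0.532 and 4.30 ± 0.518 CPM. The call of Lgr5 in the Atf4 line (adjusted p = 0.0209) ended without control replicate 2, 3 or 5, without Atf4 replicate 4 or 5 and without both control replicates 4 and 5 (adjusted p = 0.0517 to 0.0862). Rspo4, at most 0.284 CPM on average, fell in the Atf3 line (-1.25 ± 0.46 SE, adjusted p = 0.02) and was higher in the Atf4 than in the Atf3 line (2.04 ± 0.42 SE). The fall no longer passed with limma-voom (adjusted p = 0.0618), without Atf3 replicate 2 (0.0508) or without both control replicates 4 and 5 (0.119).

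All 4 receptors of signalling without beta-catenin were called in both lines, 3 higher and 1 lower, where 73.2% and 61.6% of all tested genes were called. Ror2 rose from 6.84 ± 0.540 CPM to 16.6 ± 1.13 and 18.2 ± 2.23 CPM (1.27 ± 0.081 SE and 1.41 ± 0.081 SE), whereas its relative Ror1 fell from 32.5 ± 2.10 to 16.7 ± 0.893 and 23.9 ± 2.75 CPM (-0.96 ± 0.068 SE and -0.44 ± 0.067 SE). Per length Ror1 stood at 5.64 ± 0.365 RPKM and Ror2 at 1.61 ± 0.127 in control, and at 2.90 ± 0.155 and 3.90 ± 0.267 in the Atf3 line. Ryk rose by 0.41 ± 0.043 SE and 0.31 ± 0.043 SE. Of 5 tested further inhibitors 1 rose and 3 fell in each line, the third being Frzb, named here after its values were seen (-1.20 ± 0.13 SE and -0.81 ± 0.12 SE). Apcdd1, a membrane protein that binds Wnt and Lrp5, fell from 45.2 ± 2.40 CPM to 7.80 ± 1.68 and 11.5 ± 3.14 CPM (-2.54 ± 0.15 SE and -1.98 ± 0.15 SE). Kremen1, the receptor through which Dkk proteins remove Lrp6, fell from 269 ± 6.91 to 78.6 ± 4.38 and 112 ± 13.1 CPM (-1.78 ± 0.063 SE and -1.27 ± 0.062 SE). Trabd2b, a protease that cuts Wnt proteins, rose (1.21 ± 0.28 SE and 0.72 ± 0.29 SE) at no more than 0.360 CPM. Its call in the Atf4 line (adjusted p = 0.0405) ended with DESeq2 (0.054), with the replicate block (0.059), with no filter (0.0821), with the compared lines alone (0.0647) and without control replicate 1, 2 or 3 or Atf4 replicate 2, 3 or 4 (adjusted p = 0.0663 to 0.142).

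**Figure D5:**
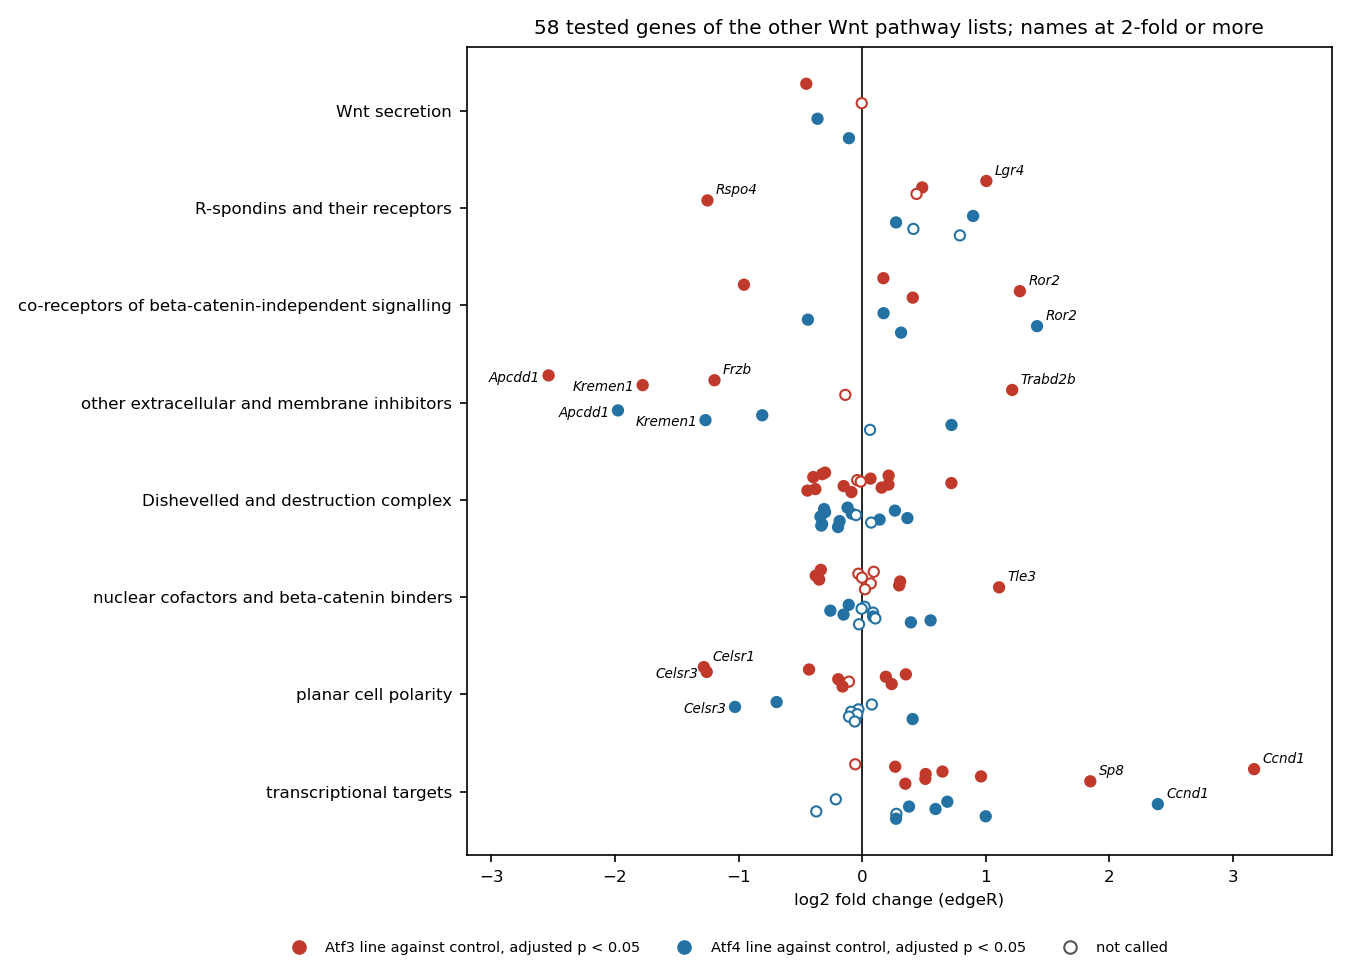
Log2 fold change against control of the 58 tested genes in 8 further Wnt pathway lists, in the Atf3 (red) and Atf4 (blue) lines, with filled points at an adjusted p under 0.05 and names at a 2-fold change or more. No gene of the destruction complex list reaches a 2-fold change, while Apcdd1 and Kremen1 lie far to the left and Ccnd1 far to the right.

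In the Dishevelled and destruction complex list 12 of 14 genes were called in each line, against 73.2% and 61.6% of all tested genes. For Atf3 5 were higher and 7 lower, for Atf4 3 were higher and 9 lower, and the largest change by edgeR was that of Dvl1. Dvl1, an adaptor below the receptors, rose (0.72 ± 0.043 SE and 0.37 ± 0.043 SE), as did Dvl2 (0.21 ± 0.036 SE and 0.14 ± 0.036 SE). Gsk3b, the kinase that marks beta-catenin for destruction, fell (-0.38 ± 0.036 SE and -0.32 ± 0.036 SE), as did Btrc, the ubiquitin ligase subunit that then recognises it (-0.40 ± 0.034 SE and -0.30 ± 0.034 SE). Of 11 nuclear cofactors 3 rose and 3 fell in each line. The corepressor Tle3 rose from 28.8 ± 2.03 CPM to 62.1 ± 4.59 and 37.9 ± 2.79 CPM, Tle2 rose by 0.30 ± 0.050 SE and 0.55 ± 0.050 SE, and Pygo1, a coactivator, fell (-0.35 ± 0.047 SE and -0.15 ± 0.046 SE). Of 9 planar cell polarity genes 3 rose and 5 fell in the Atf3 line, while 1 rose and 2 fell in the Atf4 line. Celsr1 and Celsr3, large cadherins of this pathway, fell (-1.28 ± 0.072 SE and -0.69 ± 0.071 SE, -1.26 ± 0.13 SE and -1.03 ± 0.12 SE) and Vangl1 rose (0.24 ± 0.043 SE and 0.41 ± 0.043 SE).

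Of 9 tested genes listed as transcriptional targets 8 rose in the Atf3 line, where Ascl2 did not pass the test, and 6 rose in the Atf4 line, where Ascl2, Myc and Nkd2 did not. Among all tested genes 36.8% were called higher for Atf3 and 31.9% for Atf4. This list leaves out the feedback targets that were counted among the 50 genes. Of those, Axin2 rose in both lines and Nkd1 and Rnf43 fell in both. Znrf3 fell in the Atf4 line only, and Notum was not called in either. Ccnd1, cyclin D1, rose from 107 ± 20.5 CPM to 960.5 ± 113 and 559.9 ± 182 CPM (3.17 ± 0.18 SE and 2.39 ± 0.18 SE), and the surface protein gene Cd44 by 0.65 ± 0.053 SE and 0.38 ± 0.053 SE. Myc rose in the Atf3 line (0.96 ± 0.20 SE), stood at -0.37 ± 0.20 SE in the Atf4 line (adjusted p = 0.11, but 0.00714 without control replicate 1 and 0.0167 without Atf4 replicate 5) and was lower in the Atf4 than in the Atf3 line (-1.33 ± 0.20 SE). Ccnd1, Myc and Cd44 are known to answer to mitogen and stress signals as well. Sp5, a target that follows beta-catenin in many cell types, had 0 counts in every library. For 1 library taken alone, 0 counts leave room for an expected count of up to 3.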

How the data were processed

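Total RNA from 15 samples of 3 mouse neural precursor lines was made into libraries with the NEBNext Ultra kit, which does not mark strand, and sequenced in pairs of 150 bases, per the labels' protocols. The authors deposited 1 table of raw read counts per gene. The submitters' processing notes name STAR, edgeR and mm10. The tool versions, annotation release and counting program were not given in the sources used here. Genes were matched by identifier to GENCODE M21, and exon overlaps were read there (11 of the 50 genes share exon bases with a gene on the other strand, at most 29.4% for Notum).

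The deposited counts were analysed with edgeR 4.0.16 in R 4.3.3. Genes were filtered with filterByExpr, scaled by TMM and tested with glmQLFit and glmQLFTest in 1 fit of all 3 lines, with Benjamini-Hochberg adjustment over 18244 genes. SE is the log2 fold change divided by the square root of F. The steps were tested on simulated data. Alternatives used DESeq2 1.42.0, limma 3.58.1 with voom, RLE scaling, other filters, a replicate block, the 2 compared lines alone, and fewer libraries. Each library counted as 1 sample. Libraries of 1 line differed by more than sampling noise (chi-square per degree of freedom 5.47 to 53.4), which does not show that they were separate cultures.

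Values in every library are given for genes with a mean of at least 1 CPM in at least 1 line and a called change of at least 2-fold in any comparison, and for Ctnnb1, Lrp5, Lrp6, Axin1, Axin2, Lef1, Tcf7l1, Tcf7l2, Rnf43 and Znrf3 whatever their result. Of each other pathway list up to 2 rising and 2 falling genes with the smallest adjusted p over all comparisons are named. The direct comparison was included, so a gene higher in the Atf4 than in the Atf3 line could count as rising although it fell against control. The members, lists and rules were chosen with earlier results of these data known.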

Additional observations from a re-analysis of the deposited data

Results flagged for a closer look

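Axin2 stood at 85.3 CPM in Atf3 replicate 4, apart from the other Atf3 libraries, which lay between 76.4 and 78.9 CPM. The gap to the nearest library was 0.719 of the whole range, above Dixon's critical value for 5 samples. It was the only such case among 51 groups of 5 libraries tested (17 genes in 3 lines), of which chance alone marks about 1 in 20.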

How the results depend on the processing

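Over the alternatives that kept the threshold at an adjusted p under 0.05, the number of called Wnt genes was 24 to 28 in the Atf3 line, 21 to 26 in the Atf4 line and 14 to 18 between the lines, against 27, 25 and 15. For the other pathway genes it was 43 to 48, 34 to 41 and 25 to 30. With a 2-fold minimum added, 10, 8 and 0 Wnt genes and 12, 5 and 2 other pathway genes were called by edgeR. Of the called Wnt genes, 24 of 27, 21 of 25 and 13 of 15 were called in each of 23 alternatives, and 0 called values changed sign. Of 2821 values for 41 named genes, 57 lost and 23 gained a call. Signs turned for 8 values that were never called. Leaving out 1 library at a time, Ctnnb1 between the lines ranged from -0.0100 (without Atf3 replicate 5) to 0.0404, and was -0.00748 without Atf4 replicate 1. Tcf7l1 between the lines ranged from -0.0103 (without Atf4 replicate 1) to 0.0589. Wls in the Atf3 line ranged from -0.0395 to 0.0155 and was 0.0255 with no filter. The cause was not tested. With the replicate number as a block the called Wnt genes were 25, 23 and 15, and the other pathway genes 45, 36 and 27. Over 15 same-numbered pairs the correlation of deviations was -0.191 to 0.195, above 0.1 in 2, and 4 of 30 best matches had the same number, so the numbers were not treated as pairs. Genes below 1 CPM rest on few counts.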

Other observations

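For the member with the largest fold change at 1 CPM or more in each comparison, the genes most like it over the 15 libraries were looked up among the other 18243 tested genes, as a description. The 15 libraries fall into 3 lines, so these values mostly reflect the line means. Wnt4, with the largest change in the Atf3 line and between the lines, was most like Lrrn1 (Pearson correlation of log2 CPM 0.997), Rgma (0.996) and Cyth1 (0.996). Wnt7a, with the largest change in the Atf4 line, was most like Pole4 (0.996), Nkain1 (0.995) and Acsbg1 (0.995).

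Among Wnt genes not given in every library, the RefSeq windows of Dkk1, Wnt5b and Wnt11 held the TCF/LEF core and another window of Wnt5b held the AP-1 site. Those of Sfrp5, Wnt10b and Wnt11 held TGACG. Matches were not listed for windows on chromosome 18, where Fzd8 and Wnt8a lie.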
